A study of Mus musculus with 24 samples.

Results

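The miR-21 family of the mouse was followed through its 4 mature names, miR-21a-5p, miR-21a-3p, miR-21b and miR-21c, which were taken by name from the read counts of hippocampal exosome-enriched fractions (EEFs). Of these 4 names, 3 had at least 1 read, among 1073 mature miRNA names with a read. The members were chosen because miR-21a rose after kainic acid (KA) in these same libraries, so every difference between KA and control mice is given as a description with no test. Small RNA was sequenced from 24 libraries in 8 groups of 3, defined by isolation method, treatment and time. The mice were C57BL/6OlaHsd males (C57BL/6 in the labels) of 6 to 9 weeks, and received 0.3 μg KA in 0.2 μl into the basolateral amygdala, which causes status epilepticus, or PBS as control. Midazolam at 8 mg/kg was given after 40 min, and hippocampi were taken 24 h or 2 weeks after the injection. EEFs were prepared by ultracentrifugation (UC) from pools of 5 hippocampi or with a precipitation kit from pools of 4, and were treated with RNase A before extraction. A library is therefore a pool and not a single mouse, and the p-values measure only the spread between pooled samples.

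miRNAs are made from a hairpin precursor, whose arms give a 5p and a 3p strand. Usually the strand that is loaded into Argonaute, the guide, is kept and the other, the passenger, is degraded. miR-21a-5p is the guide of its hairpin and is known as a miRNA of injury, inflammation and reactive astrocytes, and miR-21a-3p is its passenger. The seed, bases 2 to 8 from the 5′ end, largely sets which mRNAs a miRNA binds.

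The mature sequences of the 4 members are shown because the counts below depend on how far their letters can be told apart. They are given 5′ to 3′ from RefSeq (GRCm38.p6, all 4 names matched), with the seed in capitals.
miR-21a-5p: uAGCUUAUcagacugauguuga
miR-21a-3p: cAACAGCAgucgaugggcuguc
miR-21b: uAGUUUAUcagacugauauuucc
miR-21c: uAGCUUAUcagacugguacaa
miR-21c had the seed of miR-21a-5p and the same first 15 bases, and differed from it at A16G, G18A, U19C, U20A and G21A, with positions counted from the 5′ end and the base of miR-21a-5p first. miR-21b shared the first 3 bases and differed at C4U, inside the seed, and at G18A, G21U and A22C. Among the mature names of that RefSeq table, no other had any of these 3 seeds. miR-590 is not among those names, so its seed, set down in the plan as that of miR-21a-5p, was not compared. The hairpin of miR-21a lay at chr11:86584067-86584158 on the minus strand, inside the part of a Vmp1 exon that the GENCODE annotation marks as untranslated. Its 5p arm was at chr11:86584120-86584141 and its 3p arm at chr11:86584082-86584103. The hairpin of miR-21b was at chr3:29636744-29636851 on the plus strand, within the gene Egfem1 but in none of its exons. The hairpin of miR-21c lay at chr8:128278148-128278225 on the minus strand, where no other annotated gene was found. The files hold no coordinates, and the places are those of the reference.

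The count tables held 37093 reads of miR-21a-5p (listed as mmu-mir-21a-5p), 777 of miR-21a-3p (mmu-mir-21a-3p), 84 of miR-21c (mmu-mir-21c) and 0 of miR-21b (mmu-mir-21b), among 5371420 reads in all. The 12 UC libraries had 85436 to 169639 reads and the 12 kit libraries 154884 to 676726. Levels are given as CPM, the reads of a miRNA scaled to a common library size with TMM factors. A level is thus a share of the miRNA reads, and a change in 1 miRNA cannot be told apart from a change in the rest. Nor does a level give the number of vesicles or the amount of miRNA per vesicle. For miR-21b, 0 reads in all libraries allows up to 0.559 CPM at a floor of 3 reads, and that limit covers counting error only. miR-590-5p and miR-590-3p, fixed as names to be looked up beside the family, had no read. Among the cell type markers, the neuronal list (5 of 5 detected) summed to between 32842 and 71810 CPM over all libraries. The microglia and leukocyte list summed to between 7.83 and 143 CPM (4 of 4 detected), far below miR-21a-5p.

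miR-21a-5p was among the most abundant miRNAs of every library, with a rank by reads between 15 and 46. With UC, the control libraries at 24 h held 1913, 2560 and 2444 CPM (replicates 1 to 3) and the KA libraries 6729, 5444 and 7283 CPM. At 2 weeks the UC controls held 2772, 3238 and 3476 CPM and the KA libraries 5763, 5721 and 8654 CPM. In both UC comparisons the lowest KA library was above the highest control. With the kit, the controls at 24 h held 4971, 2519 and 4252 CPM and the KA libraries 6884, 6429 and 8194 CPM. The kit controls at 2 weeks held 3407, 5150 and 4486 CPM, and the KA libraries 8436, 16743 and 11823 CPM. Again no KA library overlapped a control, and replicate 2 of the kit KA group at 2 weeks, the deepest library, was the highest of all. In the kit libraries at 2 weeks, the smooth muscle markers (2 of 2 detected, none at 0) summed to 13675 to 23078 CPM in controls and 19937 to 36736 CPM in KA mice. With the kit at 24 h the sums were 11343.5 to 17552 and 10743 to 19394 CPM. With UC they were 12639 to 17518 and 11927 to 14543 CPM at 24 h. At 2 weeks the UC sums were 9754 to 12834 and 6555 to 12793 CPM, with 1 marker at 0 in that KA group. The part of these markers in the level of miR-21a-5p was not tested.

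The log2 fold changes of miR-21a-5p, KA over control, were 1.50 (SE 0.28) at 24 h and 1.08 (SE 0.27) at 2 weeks with UC, and 0.89 (SE 0.31) and 1.46 (SE 0.31) with the kit. These correspond to levels 2.82, 2.12, 1.85 and 2.75 times those of the controls. All KA libraries above all controls was seen for 4.52% (24 h) and 5.95% (2 weeks) of the miRNAs tested in UC libraries, and for 5.96% (24 h) and 2.88% (2 weeks) in kit libraries. Since this contrast chose the member, nothing is read from its place among them. The size depended on the scaling in some comparisons. Relative to the summed reads of miR-92b-3p and miR-25-3p, the log2 difference was 0.45 with UC at 2 weeks and 0.46 with the kit at 24 h. With UC at 24 h and with the kit at 2 weeks it moved by less than 1 SD between replicates. These references had 21 to 136 reads each in a UC library, and miR-25-3p was itself among the miRNAs most like miR-21a-5p.

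Ordered by mean level, miR-21a-5p ran from the kit KA group at 2 weeks (12334 ± 4177 CPM, SD, n = 3) through kit KA at 24 h (7169 ± 916), UC KA at 2 weeks (6713 ± 1682) and UC KA at 24 h (6485 ± 943) to the controls. The highest group did not overlap the second, whereas the other KA groups overlapped their neighbours among them. The control groups followed with 4348 ± 880 (kit, 2 weeks), 3914 ± 1261 (kit, 24 h), 3162 ± 358 (UC, 2 weeks) and 2306 ± 345 CPM (UC, 24 h). The lowest KA group and the highest control group did not overlap, and neither did the UC controls of the 2 times. How many of all miRNAs have such gaps between these groups was not counted, so nothing is read from them. The difference between the UC controls of the 2 times did not pass its test, given below.

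miR-21a-3p was much rarer, with 6 to 135 reads per library and a rank between 71 and 258. In UC controls at 24 h it held 156, 201 and 201 CPM, and in UC KA libraries at 24 h 673, 1043 and 961 CPM. This was the only one of the 4 comparisons in which the KA libraries of miR-21a-3p were all above the controls. Later, at 2 weeks, the UC controls held 70.5, 121 and 135 CPM and the UC KA libraries 126, 221 and 132 CPM. With the kit at 24 h the controls held 78.2, 35.2 and 54.4 CPM and the KA libraries 67.5, 143 and 223 CPM. The kit controls at 2 weeks held 38.5, 41.3 and 32.3 CPM and the KA libraries 38.5, 94.1 and 60.4 CPM. In these last 3 comparisons the groups overlapped, and 1 or 2 of the 3 KA libraries were above every control.

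The log2 fold changes of miR-21a-3p were 2.25 (SE 0.37) at 24 h and 0.55 (SE 0.41) at 2 weeks with UC, and 1.31 (SE 0.48) and 0.77 (SE 0.50) with the kit. At 24 h with UC the passenger thus stood at 4.77 times its control level and the guide at 2.82 times. Relative to miR-92b-3p and miR-25-3p, the value with UC at 2 weeks was -0.09. With 1 library left out, the fitted log2 fold change with UC at 2 weeks ranged from 0.29 (without KA replicate 2) to 0.77, with the kit at 24 h from 0.85 (without KA replicate 3) to 1.65, and with the kit at 2 weeks from 0.37 (without KA replicate 2) to 1.03. The value with UC at 24 h kept between 2.05 and 2.43. The UC KA group at 24 h (892 ± 194 CPM, n = 3) was the highest group of miR-21a-3p and did not overlap the second, UC controls at 24 h (186 ± 26.0 CPM). All KA libraries lay above all controls there for 4.52% of the miRNAs tested. All later neighbours in the order overlapped, down to the kit controls at 2 weeks (37.3 ± 4.60 CPM).

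**Figure D1:**
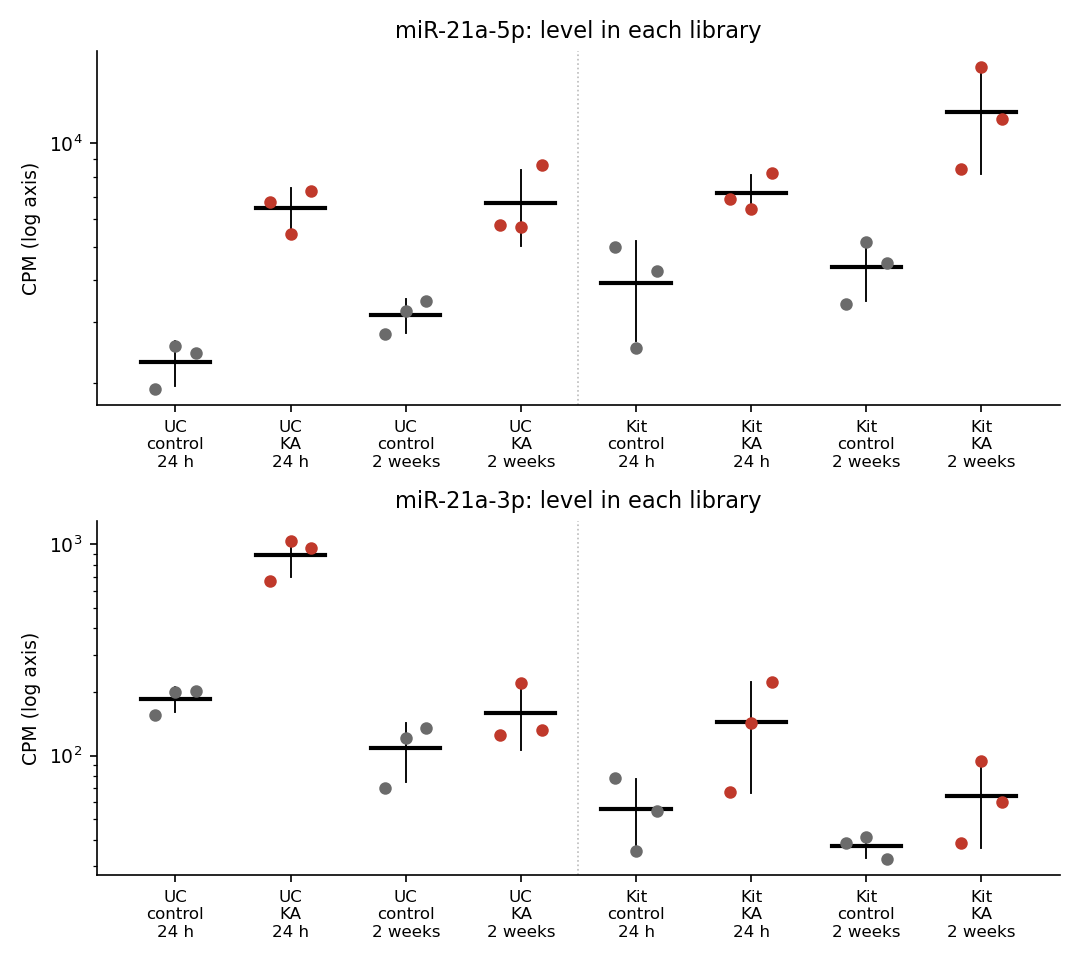
Level of miR-21a-5p (top) and miR-21a-3p (bottom) in each of 24 libraries, in CPM on a log axis. Points are libraries (control grey, KA red), horizontal lines group means and vertical lines ± 1 SD (n = 3); the KA libraries of miR-21a-5p lie above their controls in all 4 comparisons, and those of miR-21a-3p stand clear with UC at 24 h, at 673 to 1043 CPM.

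Between the 2 times, the arms of the KA groups had the following differences. After KA, miR-21a-3p at 2 weeks compared with 24 h had a log2 difference of -2.48 (SE 0.37) with UC and -1.06 (SE 0.46) with the kit, where it was -0.63 without KA replicate 3 at 24 h and -1.45 without KA replicate 2 at 2 weeks. miR-21a-5p had 0.05 (SE 0.27) with UC, a sign that changed under several settings, and 0.80 (SE 0.31) with the kit, where it lay between 0.55 and 1.03 with 1 library left out. The kit differences thus had opposite signs in the arms, and their sizes were not compared by a test. These contrasts share the KA libraries in which the members were chosen, and are given with no test.

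Time in control mice was not part of the choice and was tested. In the UC controls, miR-21a-5p was 0.46 (SE 0.27) higher on the log2 scale at 2 weeks than at 24 h, and miR-21a-3p was at -0.78 (SE 0.41), with an adjusted p of 0.989 for each by edgeR's quasi-likelihood test. In the kit controls the values were 0.23 (SE 0.31) for miR-21a-5p and -0.52 (SE 0.51) for miR-21a-3p (adjusted p = 0.977 for each, edgeR). No miRNA passed adjustment in either method (0% of those tested in edgeR), and 4.05% with UC and 3.65% with the kit had an unadjusted p under 0.05. The control time difference did not pass a test of its difference between methods for either arm (edgeR interaction, adjusted p = 0.975 for miR-21a-5p and 0.977 for miR-21a-3p).

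Between the isolation methods, the arms of miR-21a differed in opposite directions. miR-21a-5p was higher with the kit (6941 ± 4004 CPM, n = 12) than with UC (4666 ± 2214 CPM, n = 12), and miR-21a-3p was lower (75.5 ± 56.1 against 337 ± 348 CPM). Adjusted for treatment and time, the log2 difference, kit minus UC, was 0.56 (SE 0.14) for miR-21a-5p, or 1.48-fold higher (adjusted p = 0.00093, edgeR). For miR-21a-3p it was -1.83 (SE 0.23), or 3.55-fold lower with the kit (adjusted p = 1.24e-08, edgeR). Of the 397 miRNAs tested, 66.2% were called, 33.2% higher with the kit and 33% lower, so a call in itself was common. Relative to miR-92b-3p and miR-25-3p, the difference of miR-21a-5p was 0.11. The methods were handled as separate sets of libraries, so method and library set cannot be told apart. Markers of cell types moved with the method too. The endothelial list (2 of 2 detected, none at 0) summed to 241 to 541 CPM with UC and 2239 to 3335 CPM with the kit. The oligodendrocyte list (2 of 2, none at 0) summed to 6609 to 10265 CPM with UC and 1531 to 2274 CPM with the kit, and the part of either in the miR-21a difference was not tested.

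The ratio of the arms was then taken within each library, where scaling drops out. In UC controls at 24 h there were 12.3, 12.7 and 12.2 reads of the 5p arm per read of the 3p arm, and in UC KA libraries at 24 h 10.0, 5.22 and 7.58. At 2 weeks the UC controls had 39.3, 26.7 and 25.8 and the UC KA libraries 45.9, 25.9 and 65.7. With the kit the controls at 24 h had 63.6, 71.5 and 78.1 and the KA libraries 102, 45.0 and 36.8. The kit controls at 2 weeks had 88.5, 125 and 139 and the kit KA libraries 219, 178 and 196. Each kit group lay above the UC group of the same treatment and time with no overlap. In UC the KA libraries at 24 h were the lowest of all, and with the kit the KA libraries at 2 weeks were the highest of all.

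Expressed as a share, the 3p arm made up 16.1% of the miR-21a reads in replicate 2 of the UC KA group at 24 h (Wilson 95% interval 13.7 to 18.7%, 840 reads). At the other end, it made up 0.454% in replicate 1 of the kit KA group at 2 weeks (0.239 to 0.860%, 1983 reads). The shares averaged 12.3 ± 3.53% in UC KA at 24 h, 7.47 ± 0.171% in UC controls at 24 h, 3.27 ± 0.691% in UC controls at 2 weeks and 2.45 ± 1.14% in UC KA at 2 weeks (n = 3 each). With the kit, the means were 1.93 ± 0.863% in KA at 24 h, 1.40 ± 0.143% in controls at 24 h, 0.875 ± 0.213% in controls at 2 weeks and 0.507 ± 0.0524% in KA at 2 weeks. The intervals cover counting error only, since reads were not counted by molecular identifiers.

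**Figure D2:**
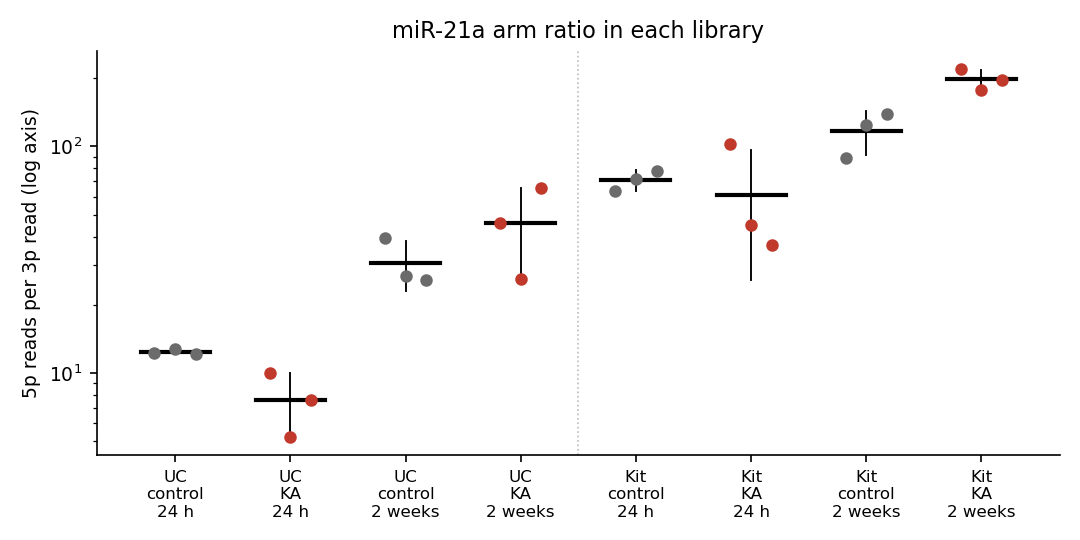
Reads of miR-21a-5p per read of miR-21a-3p in each of 24 libraries, on a log axis. Points are libraries (control grey, KA red), horizontal lines group means and vertical lines ± 1 SD (n = 3); the ratios run from 5.22 to 65.7 with UC and from 36.8 to 219 with the kit, and kit groups lie above the UC groups of the same treatment and time.

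The method difference in the arm ratio was tested across hairpins. For miR-21a the mean log2 ratio was 4.18 ± 1.11 with UC and 6.55 ± 0.814 with the kit (n = 12 each), a difference of 2.38 within treatment and time. An exact two-sided permutation test within the 4 treatment and time strata gave p = 1.25e-05, the smallest that the 160000 assignments allow, and 7e-05 after adjustment over the 28 hairpins with both arms measured. Of these hairpins 75% passed adjustment, and 50% did so with a higher 5p to 3p ratio with the kit. By size the difference of miR-21a ranked 1 of 28, where the others lay between -1.97 and 2.22 and the median was 0.495. Complete separation of kit and UC in every stratum was found in 17.9% of the hairpins. Within the strata the log2 difference of miR-21a was 2.48 (SE 0.09) in controls at 24 h, 2.90 (SE 0.52) in KA mice at 24 h, 1.93 (SE 0.27) in controls at 2 weeks and 2.19 (SE 0.39) in KA mice at 2 weeks.

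**Figure D3:**
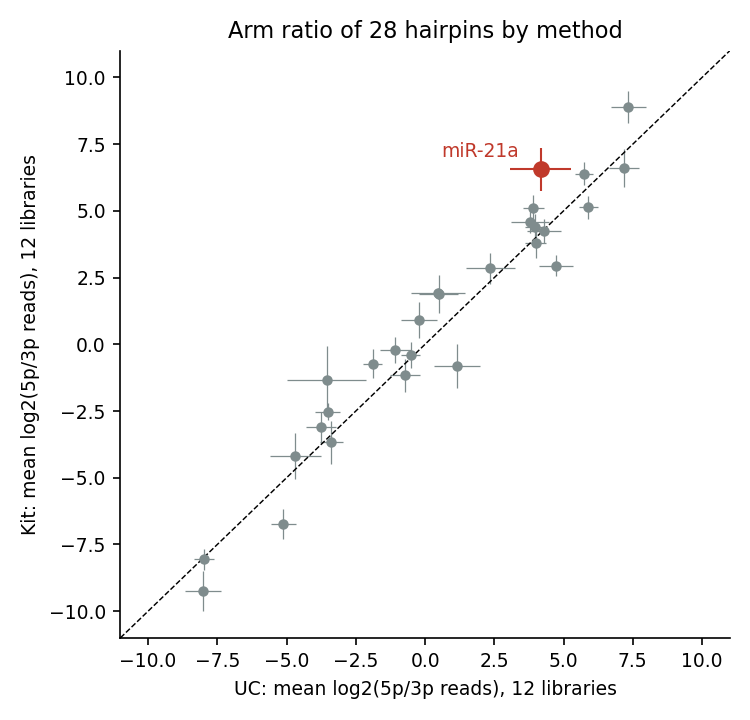
Mean log2 ratio of 5p to 3p reads with UC (horizontal) and with the kit (vertical) for the 28 hairpins with both arms measured, with bars of ± 1 SD over 12 libraries and a dashed line of equality. miR-21a (red, 4.18 with UC and 6.55 with the kit) has the greatest vertical distance from the line among these hairpins.

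The arm ratio was also compared between the 2 times in control mice, with fewer libraries behind it. From 24 h to 2 weeks the log2 ratio of miR-21a was 1.25 (SE 0.19) higher in UC controls and 0.70 (SE 0.21) higher in kit controls, and the libraries of the 2 times overlapped in neither method. Non-overlap was seen in 17.9% of the hairpins with UC and 21.4% with the kit. Over both methods the difference was 0.98, which ranked 1 of 28 by size, and an exact two-sided permutation test within method gave p = 0.005, the smallest that 400 assignments allow. After adjustment over the 28 hairpins p was 0.14, so the difference did not pass, nor did that of any other hairpin (0%). With 400 assignments a hairpin could pass only if several others had similarly small p-values, so nothing is concluded from this. Unadjusted, 4 of 28 had an exact p under 0.05. In KA mice the ratio was 2.52 (SE 0.47) higher at 2 weeks on the log2 scale with UC and 1.81 (SE 0.45) higher with the kit, given without a test.

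Between KA and control mice the log2 arm ratio of miR-21a differed with opposite signs at the 2 times. At 24 h the log2 difference, KA minus control, was -0.73 (SE 0.27) with UC, where no libraries overlapped, and -0.31 (SE 0.45) with the kit, where they did. At 2 weeks it was 0.53 (SE 0.43) with UC, with overlap, and 0.79 (SE 0.20) with the kit, without. Non-overlap of KA and control libraries was found in 7.14% of the hairpins with UC, at 24 h and again at 2 weeks, and with the kit in 10.7% at 24 h and 7.14% at 2 weeks. With the kit at 2 weeks the value lay between 0.60 and 0.91 with 1 library left out. The other sizes depended more on single libraries. With the kit at 24 h the value was -0.75 without KA replicate 1, the library with a ratio of 102, and -0.17 and -0.02 without KA replicates 2 and 3. With UC at 2 weeks it was 0.23 without KA replicate 3 and 0.89 without KA replicate 2, and with UC at 24 h it was -0.49 without KA replicate 2. All of these are descriptions of the contrast on which the members were chosen.

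The read ends add what the letters of single reads hold. The deposited modification tables list bases at the ends of a read that differ from the hairpin, with a position that counts from 0 at the last base of the mature sequence. That reading of the position was checked on 286520 reads with a 3′ end change, of which 0.0893% began with the base that the hairpin has there, against 23.3% when the position was shifted by 1 base upstream and 19.8% downstream. Longer or shorter reads that still match the hairpin are not listed as changed. Of the miR-21a-5p reads 95.03% had no change listed, 4.68% had a change at the 3′ end and 0.245% at the 5′ end. Of the miR-21a-3p reads 87.0% had none and 13.0% had a 3′ change.

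The commonest changed forms are shown because they make up most of the listed 3′ changes of each arm. Capitals mark the listed bases, and the letters before them match the hairpin.
miR-21a-5p with C: uagcuuaucagacugauguugacC
miR-21a-5p with A: uagcuuaucagacugauguugacA
miR-21a-3p with A: caacagcagucgaugggcugA
The first form, with 1160 reads or 3.13% of miR-21a-5p, extends the mature sequence by the next base of the hairpin and then by a C that the hairpin does not have. The second, with 228 reads (0.615%), ends in A at the same place. The third, with 68 reads (8.75% of miR-21a-3p), has A in place of the last but one base. The median share of reads with a single C at the 3′ end was 0.101% with UC and 0.0751% with the kit over 111 miRNAs, and miR-21a-5p ranked 2 of 111 in both methods.

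In UC controls at 24 h, 5.43, 3.49 and 4.93% of the miR-21a-5p reads ended in a single C, and in UC KA libraries at 24 h 13.7, 11.5 and 11.0%. At 2 weeks the UC controls had 2.82, 3.12 and 2.69% and the UC KA libraries 2.77, 2.46 and 2.28%. Thus at 24 h with UC the KA libraries stood clear of the controls, and at 2 weeks the groups overlapped. With the kit the controls at 24 h had 4.26, 4.43 and 2.39% and the KA libraries 10.4, 3.50 and 6.70%. The kit controls at 2 weeks had 2.87, 1.25 and 1.44% and the kit KA libraries 1.42, 0.352 and 0.830%. The kit groups overlapped at each time, and the 2 highest kit libraries were KA libraries at 24 h.

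Non-overlap of KA and control libraries in the single-C share was found in 2.7% (24 h) and 4.5% (2 weeks) of the 111 miRNAs with UC, and in 7.21% (24 h) and 5.41% (2 weeks) with the kit. Between the KA groups of the 2 times, the shares of miR-21a-5p overlapped in neither method, where non-overlap held for 6.31% of the miRNAs in each. At 24 h the mean difference, KA minus control, was 7.45 percentage points with UC and 3.16 with the kit, and at 2 weeks it was -0.374 and -0.988. Without replicate 1 of the kit KA group at 24 h, the value there was 1.40, and without replicate 2 it was 4.83. With the kit at 2 weeks it ranged from -1.29 to -0.478, the latter without control replicate 1. In control mice the share was 1.79 percentage points lower at 2 weeks than at 24 h over both methods (exact permutation within method, two-sided, p = 0.015). The control libraries of the 2 times did not overlap with UC, as in 5.41% of the miRNAs, and did overlap with the kit, where 3.6% did not. The time difference in controls did not pass adjustment over the 111 miRNAs (adjusted exact p = 1), nor did any other miRNA (0 of 111, 3 of them with an unadjusted p under 0.05). The smallest p this permutation test allows is 0.005. A pass over 111 miRNAs would need many of them near it, so nothing is concluded from this.

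**Figure D4:**
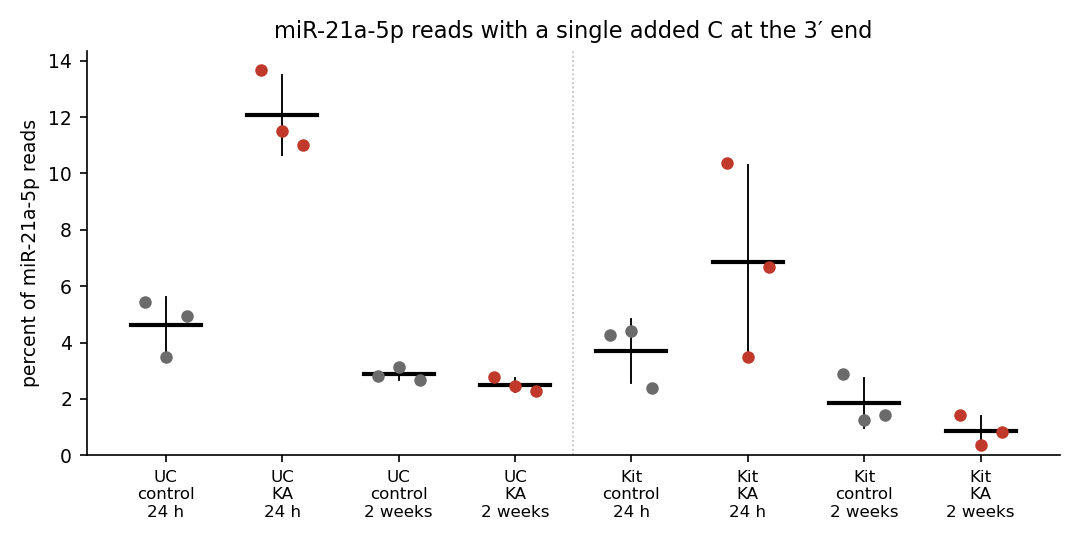
Percent of miR-21a-5p reads with a single added C at the 3′ end in each of 24 libraries. Points are libraries (control grey, KA red), horizontal lines group means and vertical lines ± 1 SD (n = 3); the UC KA libraries at 24 h lie at 11.0 to 13.7%, above every other library, and the kit KA libraries at 2 weeks at 0.352 to 1.42%.

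By method, the single-C share of miR-21a-5p was 5.52 ± 4.11% with UC and 3.32 ± 2.87% with the kit (n = 12 each). The difference of -2.20 percentage points, kit minus UC, had p = 0.00034 in the exact stratified permutation test and 0.0125 after adjustment over 111 miRNAs, of which 2.7% passed. With same-numbered libraries as a replicate block the adjusted exact p was 0.0903, which did not pass. In the control libraries alone the difference was smaller, at -0.974 (adjusted exact p = 0.888). That test has only 400 assignments and could pass only if many miRNAs had similarly small p-values, so its p decides nothing. Without replicate 1, 2 or 3 of the UC KA group at 24 h the adjusted exact permutation p was 0.0856, 0.108 and 0.0738. Any 3′ change was listed in 7.43 ± 3.87% of the miR-21a-5p reads with UC and 5.15 ± 3.35% with the kit (adjusted exact p = 0.0171, where 34.2% of the miRNAs passed), and without replicate 1 of the UC KA group at 24 h the adjusted exact p was 0.0506. A single added A (1.26 ± 0.495% with UC, 1.00 ± 0.750% with the kit), a single U and ends of 4 or more listed nucleotides did not pass adjustment by method (adjusted exact p = 0.540, 0.482 and 0.105, where 23.4%, 20.7% and 25.2% of the miRNAs passed).

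For miR-21a-3p the reads were too few for the minimum of 20 reads in every library, so no adjusted value is given. A 3′ change was listed in 59 of 476 reads with UC (12.4%) and in 42 of 301 with the kit (14.0%), and the means over libraries were 14.5 ± 11.5% and 14.1 ± 4.94% (n = 12 each, exact permutation p = 0.893, not adjusted). A single A made up 47 of these reads with UC and 32 with the kit. By group, the single-A share was 22.2 to 27.3% in UC KA libraries at 2 weeks (73 reads in all) and 5.26 to 8.24% at 24 h (296 reads). In UC controls it was 0 to 11.1% at 2 weeks and 0 to 16% at 24 h. With the kit, KA and control libraries overlapped at each time. How many miRNAs differ so between groups was not counted, so nothing is read from these few reads. A single C at the end of miR-21a-3p was found in no library. The UC KA libraries at 24 h, which had the highest single-C shares of the guide, were also those with the highest 3p shares. In the kit, replicate 1 of the KA group at 24 h had the highest single-C share (10.4%) but a 3p share of 0.971%, below the kit controls of that time.

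**Figure D5:**
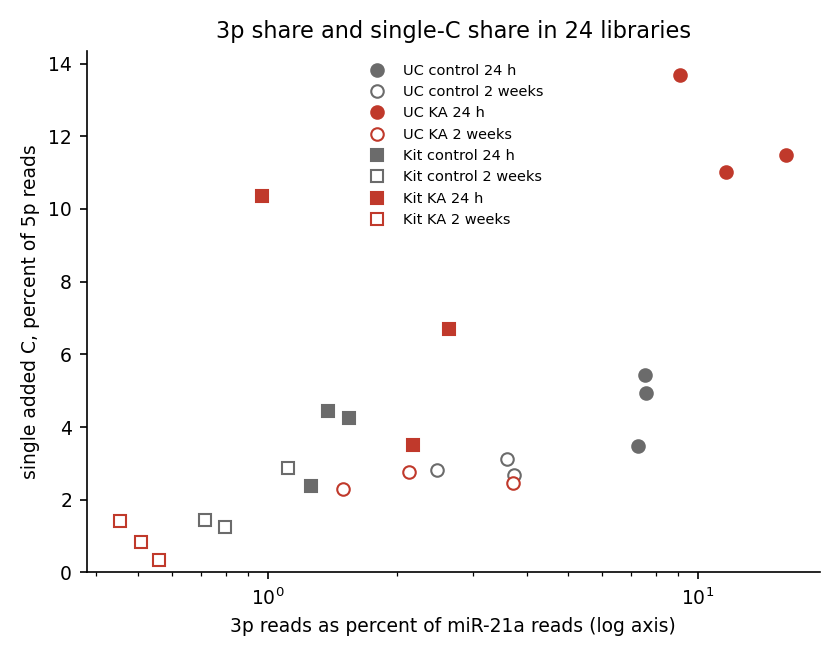
Share of the 3p arm among miR-21a reads (horizontal, percent, log axis) and share of miR-21a-5p reads with a single added C (vertical, percent) in 24 libraries; circles are UC, squares the kit, grey control, red KA, filled 24 h and open 2 weeks. The UC KA libraries at 24 h lie apart at the upper right, with 9.09 to 16.1% on the horizontal axis and 11.0 to 13.7% on the vertical axis.

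miR-21c had reads in 15 of 24 libraries, and what these reads hold is shown by the commonest of them, 31 of the 84, with the listed bases in capitals.
miR-21c read: uagcuuaucagacuggAGAGGGAGC
None of the 84 reads matched miR-21c along its length. In 82 of them the listed bases began 4 places before the last base of the mature sequence, so that the first 16 bases matched, and in the other 2 they began 1 base earlier. All 84 had ends of 4 or more listed nucleotides, and in 82 (97.6%) at least 75% of these were A or G. Since the first 15 bases are those of miR-21a-5p, a read was set apart from miR-21a-5p at A16G or not at all. Of the miR-21a-5p reads, 123 (0.332%) had ends of 4 or more listed nucleotides, 75 of them rich in A or G by the same measure. The counts of miR-21c are therefore reported as uncertain as to the hairpin they came from.

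By group, miR-21c had 0 reads in each of the 6 UC control libraries, 2, 2 and 2 in the UC KA libraries at 24 h and 0, 0 and 8 at 2 weeks. With the kit it had 3, 1 and 0 reads in controls at 24 h and 6, 11 and 17 in KA libraries, then 4, 1 and 1 in controls and 9, 9 and 8 in KA libraries at 2 weeks. In kit libraries the KA levels lay above the controls at both times (16.2 to 65.2 against 0 to 9.77 CPM at 24 h, and 14.3 to 38.5 against 2.58 to 14.0 CPM at 2 weeks). The same held for 5.96% (24 h) and 2.88% (2 weeks) of the miRNAs tested with the kit. Set against miR-21a-5p in the same library, the reads of miR-21c amounted to 0 to 0.796% of its number. The fitted log2 fold changes of miR-21c with the kit, 2.67 (SE 0.83) at 24 h and 1.83 (SE 0.79) at 2 weeks, rest on these few reads and depend on the prior count of the fit. With UC miR-21c did not reach the filter of CPM over 1 in at least 6 libraries.

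Other miRNAs of inflammation and injury were counted for comparison, from a list of 14 that was drawn up with earlier results of these data known. With UC, 12 of the 14 were measured. At 24 h none passed adjustment (edgeR, 1 with an unadjusted p under 0.05), where 0.476% of all miRNAs were called higher, and the list's median log2 difference, KA minus control, was 0.17, against 0.06 over all 420 miRNAs. At 2 weeks 1 of 12 was called higher, where 0.952% of all miRNAs were, and the median was 0.49 against 0.02. This was miR-146a-5p, a miRNA induced by NF-κB that dampens innate immune signalling, with a log2 fold change of 1.22 (SE 0.27, adjusted p = 0.0149, edgeR). The call was lost without control replicate 3 or KA replicate 3 at 2 weeks (adjusted p = 0.0683 and 0.137, edgeR), and also with library size only (0.0740) and with no filter on low counts (0.0575). With the kit 13 were measured and none passed adjustment in edgeR at either time, with 0 and 1 below an unadjusted p of 0.05, and 0% of all miRNAs were called higher at either time. Neither DESeq2 nor limma-voom called a listed miRNA in the kit libraries or in the UC libraries at 24 h. The kit value of miR-146a-5p at 2 weeks was 1.93 (adjusted p = 0.168, edgeR). It passed the threshold with the replicate block (1.74, adjusted p = 0.00528, edgeR), where 0.385% of all miRNAs were called higher, with no filter on low counts (3.22e-06) and without KA replicate 1 at 2 weeks (0.00710), and was 1.14 (0.997) without KA replicate 2. With UC the block gave 1.20 (adjusted p = 0.00568, edgeR), where 0.952% were called higher. The medians were -0.03 at 24 h and 0.32 at 2 weeks, against 0.09 and -0.01 over all 520. By method, 6 of 12 listed miRNAs were called higher with the kit and 2 lower, where 33.2% and 33% of all miRNAs were.

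The miRNAs whose levels varied most like those of the members were sought over the 24 libraries, with log2 CPM centred within method, among miRNAs with at least 10 reads in every library. For miR-21a-5p, these were miR-338-3p (Pearson r = 0.63), miR-27a-3p (0.62), miR-381-3p (0.59), miR-1839-5p (0.58) and miR-25-3p (0.58) of 145 compared. The other arm of its own hairpin, miR-21a-3p, came at rank 22 with r = 0.46. For miR-21a-3p the list began with miR-107-3p (r = 0.74), followed by miR-338-5p (0.50), miR-21a-5p (0.46), miR-132-3p (0.46) and miR-708-3p (0.43) of 146 compared. Within each method some values differed from these. For miR-21a-3p, miR-338-5p had r = 0.73 with UC and 0.26 with the kit, whereas miR-107-3p had 0.74 and 0.77. For miR-21a-5p, miR-25-3p had 0.41 with UC and 0.77 with the kit, whereas miR-338-3p had 0.63 and 0.65. The points share libraries, depth and scaling, so these values are a description.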

How the data were processed

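Small RNA of EEFs was sequenced in 24 libraries. Per the labels and the study's methods, the authors trimmed adapters, mapped reads to miRBase 21 hairpins with Chimira and deposited counts of reads per mature miRNA, and counts per modification pattern, without normalization. How reads matching several hairpins were assigned is not given in the sources used here. Modification and count totals were equal for 11992 of 11992 pairs of miRNA and library, after leaving out 11791 reads listed in more than one entry.

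The members and lists were chosen with earlier results of these data known. The named miRNAs are the members, miR-590, the list of 14, miR-92b-3p and miR-25-3p, and the 5 most like each arm. Marker lists for neuron, oligodendrocyte, microglia and leukocyte, and endothelium are given in the report; erythrocyte markers summed to 0 to 201 CPM, smooth muscle to 6555 to 36736 CPM and choroid plexus to 283 to 3424 CPM.

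Abundance was fitted with edgeR 4.0.16 in R 4.3.3 (TMM, glmQLFit, glmQLFTest, Benjamini-Hochberg adjustment) on miRNAs with CPM over 1 in at least 6 of the 12 libraries of a method. UC and kit were fitted separately, and together for the method difference, with treatment and time as a factor. limma 3.58.1, DESeq2 1.42.0, other scalings and filters, a replicate block and each library left out were alternatives. Arm ratios used a pseudocount of 0.5 and hairpins with at least 5 reads of each arm in at least 20 libraries; read ends used miRNAs with at least 20 reads in every library. Both were tested by exact permutation (Python 3.11.15, numpy 2.4.6, scipy 1.17.1) and adjusted over all hairpins or miRNAs. The tests were first tested on simulated data. The differences between times after KA were planned as tests, and are given as descriptions because they share libraries with the contrast that chose the members.

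Replicate numbers in the labels may pair libraries. In the correlation of deviations from group means, every same-number pair of KA and control at 2 weeks was over 0.1 (0.114 to 0.237 with UC, 0.322 to 0.402 with the kit). These libraries may be paired, as may the UC KA libraries of the 2 times (0.126 to 0.160). Pairs of KA and control at 24 h ranged from -0.319 to 0.181. Same-number controls of the 2 times ranged from -0.086 to 0.315 with UC and from -0.022 to 0.382 with the kit. Pairs of different numbers were not correlated, so these values cannot decide whether libraries are paired. The main fits have no block and so leave any such pairing out. The block, an alternative, is given beside a result where it changed the call.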

Additional observations from a re-analysis of the deposited data

How the results depend on the processing

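Of 189 alternative values other than a left-out library, for 36 results, 174 kept their direction and their side of the threshold or, where untested, moved by less than 1 SD between replicates. The exceptions were miR-146a-5p, as the report gives it, and these. The difference of miR-21a-5p after KA, 2 weeks minus 24 h with UC (0.05), was -0.0056 with RLE size factors, -0.089 with library size only, -0.0053 with DESeq2 and -0.019 with at least 10 reads in at least 6 libraries. Scaling to miR-92b-3p and miR-25-3p, added after seeing the data, gave 0.11 for the method difference of miR-21a-5p, 0.45 for its KA difference with UC at 2 weeks, 0.46 with the kit at 24 h, and -0.086 for miR-21a-3p with UC at 2 weeks. In control libraries only, the method difference in read ends of miR-21a-5p was -1.03 percentage points for any 3′ change (adjusted exact p = 0.412) and -0.974 for a single C (adjusted exact p = 0.888), with 6 libraries per method. With so few libraries these tests could pass only if many miRNAs had similarly small p-values, so their p-values decide nothing. The cause of the other changes was not tested.

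With each library left out in turn, the adjusted p of the method difference stayed under the threshold for both arms and for the arm ratio (2.27 to 2.45). The method difference in read ends ranged from -2.74 to -1.83 percentage points for any 3′ change and from -2.64 to -1.78 for a single C, and the calls were lost as the report gives them. The difference of miR-21a-5p after KA with UC ranged from -0.11 (without KA replicate 3 at 2 weeks) to 0.19. The KA difference of miR-21c with the kit ranged from 2.00 to 3.75 at 24 h and from 1.36 to 2.90 at 2 weeks, the highest without control replicate 1 of each time.

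With same-numbered libraries taken as a replicate block, the single-C difference between methods was still -2.20 but had an adjusted exact p of 0.0903, and the method difference was 0.57 for miR-21a-5p and -1.84 for miR-21a-3p. UC and kit libraries share only a number, since their pools differ. The block also brought miR-146a-5p with the kit at 2 weeks past the threshold, and changed no other call among the miR-21 results tested. The depth limits miR-21a-3p, with 6 to 135 reads per library, and miR-21c, with 0 to 17.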
